A study of Mus musculus with 66 samples.

Results

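Mouse rectal mucosa at experimental day 14 was compared with uninjured rectal mucosa, using 7 of the 66 bulk tissue samples of the study. The samples were chosen by their labels: the rectal sections of mice 1, 2, 3 and 4 at day 0 and of mice 14, 15 and 16 at day 14. All 7 mice were C57Bl/6 animals purchased at 6 weeks of age. The day 14 mice had drunk 3% dextran sulfate sodium (DSS) for 6 days from day 0, so their tissue was taken 8 days after DSS ended. The day 0 mice were uninjured controls. In both groups the muscle layer was removed before RNA isolation, and each sample is 1 mouse. The question was which genes of the rectal mucosa still stood away from their uninjured level at this point of recovery.

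DSS damages the surface epithelium of the colon and rectum, lets luminal bacteria reach the tissue and draws in neutrophils and monocytes. After DSS is withdrawn, epithelial cells migrate, divide and differentiate again, and the infiltrate clears over the following weeks. In the uninjured distal colon, absorptive colonocytes take up sodium, chloride and water, goblet cells secrete mucus, and enteroendocrine cells release peptide hormones.

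Levels are given in TPM, a length-adjusted share of the transcripts of a library scaled to a fixed total. Changes are differences of group means of log2(TPM + 1), here called log2 changes, which understate the change of genes near 0. A gene was called where its adjusted p from limma with Benjamini-Hochberg correction over all tested genes was under 0.05. Read counts were not used here, so the depth of the samples is unknown and no counting error is given. In bulk tissue, fewer cells of a type and less RNA per cell cannot be told apart.

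The day 14 mice differed among themselves, and mouse 14 lay nearest to the uninjured samples. The mean absolute log2 distance from the day 0 mean over all tested genes was 0.334 in mouse 14, 0.575 in mouse 15 and 0.586 in mouse 16, against 0.169 to 0.217 for each uninjured mouse measured against the others. The spread of the day 14 mice was the larger one in 75.8% of genes. Between 12080 and 13242 genes reached 1 TPM in a sample. Mitochondrially encoded transcripts made up 16.3% to 20.0% of TPM at day 0 and 18.4%, 11.6% and 13.4% in mice 14, 15 and 16.

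Of 12749 tested genes, 2017 were called (15.8%), 804 of them higher (6.31%) and 1213 lower (9.51%) at day 14. These shares are the background for the counts of the gene lists below. The median log2 change of all tested genes was -0.02, and 34.7% of genes had an unadjusted p under 0.05. In 11.3% of all tested genes every day 14 mouse lay above every uninjured mouse, and in 18.3% every day 14 mouse lay below. The split depended on scaling and on the samples in the fit. With TMM factors, 1337 genes were called higher and 1242 lower. With all 19 rectal samples in the fit and no rescaling, 929 were higher and 902 lower. The number of calls rested on single mice. With the same genes tested, it was 4666 without mouse 14, 1256 without mouse 15 and 396 without mouse 16. Without an uninjured mouse it was 467 (mouse 1), 532 (mouse 2), 544 (mouse 3) or 962 (mouse 4). Of 135 called genes kept for this check, most of them named below, all were still called without mouse 14, 85 without mouse 15 and 70 without mouse 16. Without uninjured mouse 1, 2, 3 or 4, it was 68, 70, 72 and 90 of them. None changed direction. With TPM rescaled to leave out mitochondrial transcripts, all 135 remained called. For the gene lists below, counts without a day 14 mouse keep the same genes tested, a choice made after seeing the data. A gene that was low in uninjured tissue could enter the test only through its day 14 values, which had to be higher. Many lists are therefore also given for the members that reached 1 TPM in 3 uninjured mice.

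For each called gene, the day 14 mouse nearest to day 0 was counted, but not the order of the others, which differed between genes. Mouse 14 was the nearest to day 0 in 705 of the 804 genes called higher, mouse 15 in 51 and mouse 16 in 48. Among the 1213 genes called lower, mouse 14 was nearest in 779, mouse 15 in 388 and mouse 16 in 46. Per mouse, the median log2 difference over the genes called higher was 0.64 in mouse 14, 1.58 in mouse 15 and 1.49 in mouse 16.

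**Figure D1:**
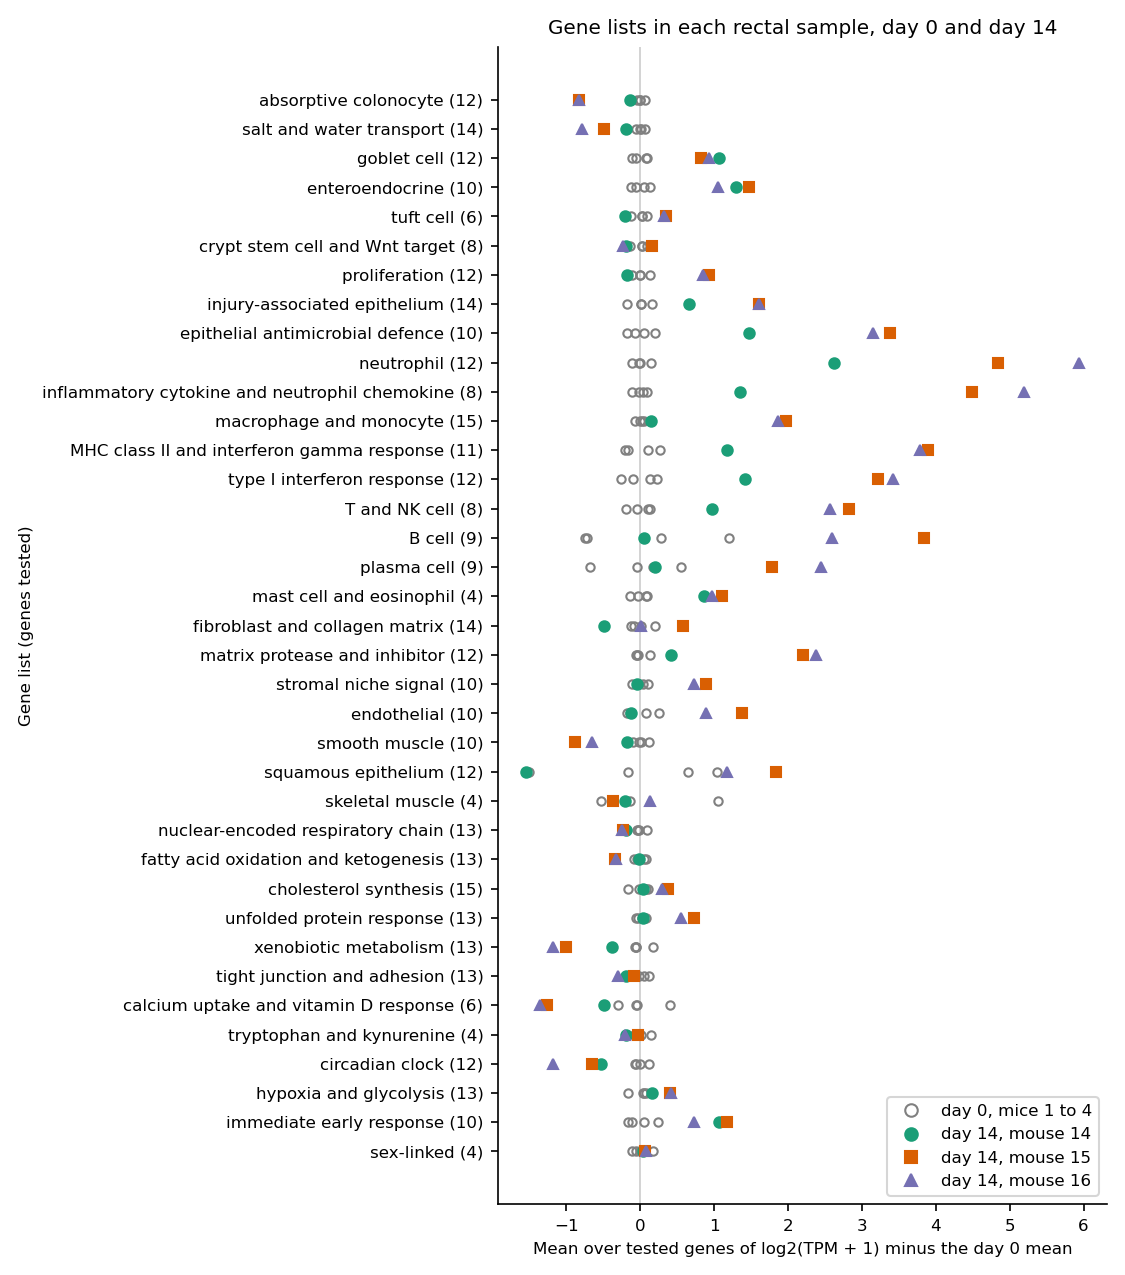
Mean over the tested genes of each list of log2(TPM + 1) minus the day 0 mean (x axis), by gene list (y axis, number of tested genes in brackets). Open circles are uninjured mice 1 to 4 and filled symbols the day 14 mice. The means include genes that entered the test only through their day 14 values, which had to be higher. These were 10 of 12 neutrophil, 6 of 8 cytokine and chemokine, 6 of 8 T and NK cell and 8 of 9 B cell genes. The positions of these lists are thus no measure of them. For the list of antigen presentation and interferon gamma response, with 2 such genes of 11, the day 14 mice sit at 1.17, 3.89 and 3.78. For the goblet cell list they sit at 1.07, 0.82 and 0.92, but these are means over genes whose order among the mice differed. The summed goblet cell list was at 31050, 17630 and 20230 TPM in mice 14, 15 and 16.

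The 12 largest rises, among genes that averaged 8 TPM or more at day 14 and whose groups were fully separated, were S100a8, Il1b, S100a9, Saa3, Ido1, Cxcl2, Retnlb, Clca4b, Acod1, Nos2, Plet1 and Il1r2. Most of these are genes of neutrophils, activated macrophages or the inflamed epithelium. Promoter sequences for 9 of the 12 were matched by symbol in the RefSeq table (GRCm38.p6). The 250 bases before each start site were searched on both strands for an interferon-stimulated response element (ISRE: GAAA, any 2 bases, GAAA), a STAT site (GAS: TTC, any 3 bases, GAA) and a kappaB site (GGG, any 2 bases, TTTCC). Each motif was found in 1 of the 9 genes, and over all 32851 promoters of that length it was found in 2.98%, 7.02% and 1.41%. The 3 promoters with a match are shown, with the match in capitals, beside that of S100a8, the gene with the largest rise, which held none of these letters.
Cxcl2, kappaB, chr5:90903649-90903898, plus strand: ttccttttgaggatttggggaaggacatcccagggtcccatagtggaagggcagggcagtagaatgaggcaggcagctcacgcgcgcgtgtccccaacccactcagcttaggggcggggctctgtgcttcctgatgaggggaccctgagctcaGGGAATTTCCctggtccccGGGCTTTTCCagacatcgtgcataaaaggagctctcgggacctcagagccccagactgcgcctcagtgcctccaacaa
Saa3, ISRE, chr7:46715677-46715926, minus strand: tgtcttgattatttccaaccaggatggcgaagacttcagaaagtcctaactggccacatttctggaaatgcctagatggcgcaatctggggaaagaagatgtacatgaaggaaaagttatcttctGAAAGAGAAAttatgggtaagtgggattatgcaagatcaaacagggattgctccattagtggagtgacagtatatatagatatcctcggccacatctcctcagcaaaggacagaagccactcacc
Il1r2, GAS, chr1:40085843-40086092, plus strand: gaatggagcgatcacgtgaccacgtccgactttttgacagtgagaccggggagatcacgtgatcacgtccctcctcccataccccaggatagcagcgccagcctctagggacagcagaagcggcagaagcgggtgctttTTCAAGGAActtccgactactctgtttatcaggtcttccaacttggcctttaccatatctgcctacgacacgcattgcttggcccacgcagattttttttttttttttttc
S100a8, no match, chr3:90668821-90669070, plus strand: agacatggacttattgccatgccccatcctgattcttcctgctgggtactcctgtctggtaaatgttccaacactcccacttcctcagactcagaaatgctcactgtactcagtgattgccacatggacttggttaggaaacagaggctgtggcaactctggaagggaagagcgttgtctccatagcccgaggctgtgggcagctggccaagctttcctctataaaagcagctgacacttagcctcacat
A match is a description of these letters and not evidence of binding.

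Of 15 listed neutrophil genes, 12 were tested and 11 were called higher (6.31% of all genes were). Of these 12, 10 entered the test only through their day 14 values, so the count is no measure of the list. Of the 2 that passed the filter on uninjured mice alone, 1 was called. The levels of single genes follow. S100a8, a subunit of the antimicrobial complex calprotectin, was at 0, 1.27, 0.715 and 0 TPM in uninjured mice 1 to 4 and at 72.9, 658 and 2032 TPM in mice 14, 15 and 16. All day 14 values lay above all uninjured ones, and mouse 16 was the highest (log2 change 8.36 ± 0.98 SE, limma adjusted p = 0.00543). Its partner S100a9 was at 0.247 to 4.22 TPM at day 0 and at 91.5, 750 and 2372 TPM at day 14, a log2 change of 7.68. The same order held for Il1r2, the decoy receptor for interleukin-1, at 0.178 to 0.458 TPM at day 0 and at 11.7, 55.4 and 110 TPM at day 14.

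Receptors that guide neutrophils and support their survival rose too. Csf3r, the receptor for granulocyte colony-stimulating factor, was at 0.111 to 0.258 TPM at day 0 and at 8.45, 36.2 and 72.5 TPM in mice 14, 15 and 16. Cxcr2, the receptor for the CXC chemokines below, was at 0.142 to 0.296 TPM and then at 2.77, 12.7 and 26.0 TPM. In both, mouse 14 held the least and mouse 16 the most. The gelatinase Mmp9 rose by a log2 change of 2.84, and the histamine-forming enzyme Hdc by 5.01. Ly6g was the 1 tested member that was not called: it was at 602 to 736 TPM at day 0 and 586 to 803 TPM at day 14, and its level is uncertain because the Ly6 family holds close copies. The count was 11, 8 and 9 without mouse 14, 15 and 16 and 7 to 9 without an uninjured mouse. With the filter applied anew after leaving out a day 14 mouse, 3 genes were tested and 2 called.

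Chemokines and cytokines that recruit and activate these cells were the next group. Of 17 listed genes, 8 were tested, 6 of them only through their day 14 values, and 6 were called higher. This count too is no measure of the list: of the 2 that passed the filter on uninjured mice alone, 1 was called. Il1b, which encodes interleukin-1β, was at 0.078 to 0.498 TPM at day 0 and at 52.2, 395 and 982 TPM at day 14 (log2 change 7.76 ± 0.84 SE, limma adjusted p = 0.00451). Cxcl2, a ligand of Cxcr2 with the kappaB letters shown above, was listed at 0 in uninjured mice 1, 2 and 3 and at 0.070 TPM in mouse 4. It reached 7.53, 96.1 and 345 TPM at day 14, a log2 change of 6.02. Cxcl5, a further Cxcr2 ligand, was at 4.55 to 6.22 TPM and then at 15.1, 133 and 147 TPM. Tnf rose by a log2 change of 3.34 and oncostatin M (Osm) by 2.88.

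In 2 members of that list that were not tested or not called, mouse 14 did not exceed the uninjured mice. Ppbp, a platelet-derived chemokine, was at 2.50 to 12.1 TPM at day 0 and at 1.14, 321 and 435 TPM in mice 14, 15 and 16 (limma adjusted p = 0.251). Il1a was at 0.196 to 0.537 TPM at day 0 and at 0.287, 22.4 and 82.3 TPM at day 14, below the filter of 1 TPM in 3 samples. Of the 8 tested genes, 3 were called without mouse 15, without mouse 16 or when any 1 uninjured mouse was left out.

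Genes of epithelial defence against microbes were higher in 6 of 10 tested cases (14 listed) and lower in none. Of the 6 that passed the filter on uninjured mice alone, 4 were called, and the median log2 change of these 6 was 2.97. Saa3, an acute-phase serum amyloid A protein with the ISRE letters shown above, was at 0.211 to 0.908 TPM at day 0 and at 8.12, 387 and 718 TPM at day 14 (log2 change 6.59 ± 1.33 SE, limma adjusted p = 0.0201). Nos2, inducible nitric oxide synthase, was at 0.239 to 0.373 TPM and then at 6.70, 172 and 143 TPM. Saa3 and Nos2 were under 1 TPM in every uninjured mouse and entered the test only through their day 14 values. Slpi, a secreted inhibitor of leukocyte proteases, was at 44.5 to 85.0 TPM at day 0 and at 464, 792 and 827 TPM at day 14, so that mouse 14 lay far above the uninjured mice.

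Duox2 and its maturation factor Duoxa2, which together make hydrogen peroxide at the epithelial surface, rose by log2 changes of 2.55 and 3.46. Duoxa2 was at 6.13 to 11.6 TPM at day 0 and at 56.7, 198 and 137 TPM at day 14. Lcn2, which encodes the iron-scavenging protein lipocalin-2, was at 1.68 to 3.05 TPM at day 0 and at 4.51, 71.3 and 118 TPM at day 14, so mouse 14 lay just above the uninjured range. The antimicrobial lectins Reg3b and Reg3g stayed below the filter, at no more than 8.07 TPM and 6.59 TPM in a day 14 mouse. Saa1 was at 1496 to 2856 TPM at day 0 and 2466 to 3496 TPM at day 14, with Saa2 at no more than 2.62 TPM. These 2 genes are close copies, and how the quantifier split their reads is uncertain. Without mouse 15 or mouse 16, 4 and 2 of the 10 defence genes were called, and 3 to 6 without an uninjured mouse.

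**Figure D2:**
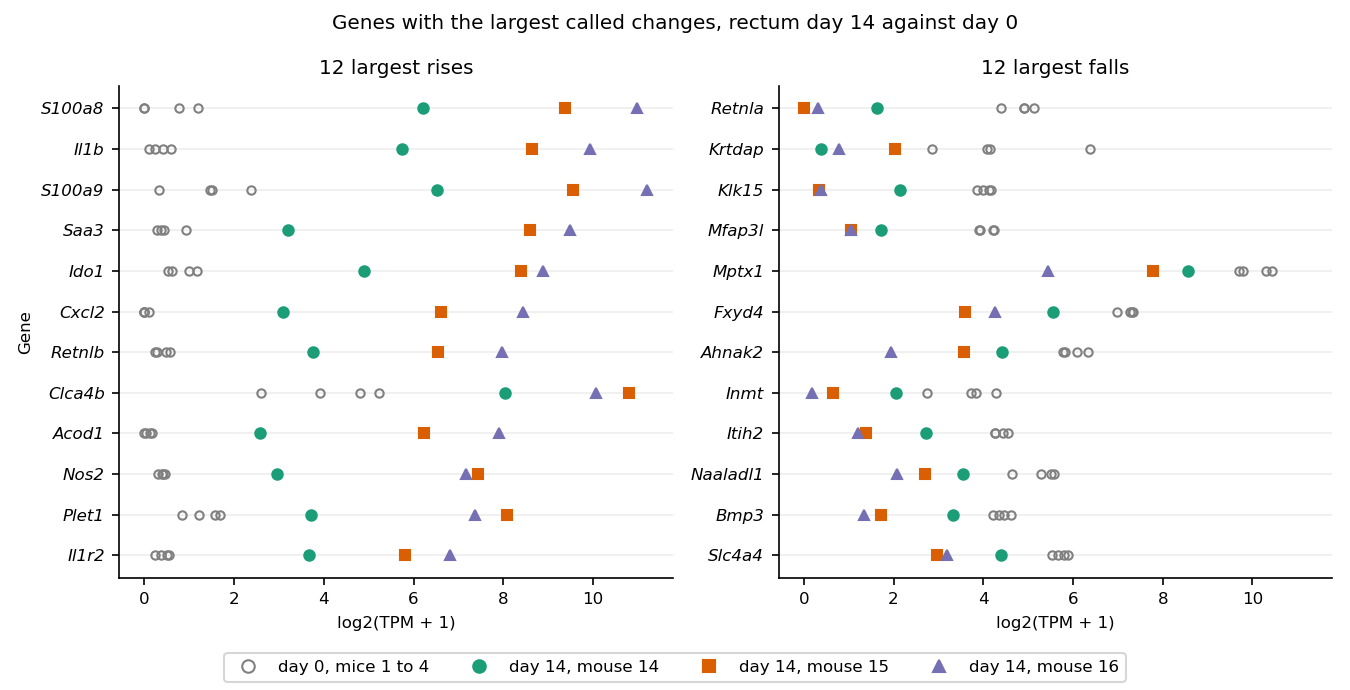
Level on the log2(TPM + 1) scale (x axis) of the 12 genes with the largest rises (left) and the 12 with the largest falls (right), 1 symbol per mouse. The genes were chosen so that the groups do not overlap. Among the day 14 mice, mouse 14 is the lowest in all 12 rises, for example at 72.9 TPM for S100a8 against 658 and 2032 TPM.

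Interferon-response genes rose as a group. All 12 tested genes of the type I interferon response (13 listed) were called higher. All 9 that passed the filter on uninjured mice alone were among them, with a median log2 change of 3.50. Zbp1, a sensor of nucleic acids, was at 15.4 to 18.1 TPM at day 0 and at 107, 349 and 294 TPM at day 14 (log2 change 3.68 ± 0.36 SE, limma adjusted p = 0.00386). Isg15, a ubiquitin-like modifier, was at 1.44 to 5.79 TPM and then at 28.0, 105 and 124 TPM. Oas1a had the smallest change, with 38.4 to 48.2 TPM at day 0 and 56.7, 90.6 and 88.3 TPM at day 14. In each of these 3 genes mouse 14 was the lowest of the day 14 mice and still above every uninjured mouse. Of the 12 genes, 5 were called without mouse 15, 5 without mouse 16 and 5 to 7 without an uninjured mouse.

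Genes of antigen presentation and of the interferon gamma response were higher in 10 of 11 tested cases (13 listed). Of the 9 that passed the filter on uninjured mice alone, 8 were called, and their median log2 change was 2.34. Ido1, the first enzyme of tryptophan breakdown to kynurenine, was at 0.439 to 1.24 TPM at day 0 and at 28.8, 335 and 472 TPM at day 14 (log2 change 6.57 ± 0.86 SE, limma adjusted p = 0.00698). Ido1 reached 1 TPM in fewer than 3 uninjured mice, so it entered the test only through its day 14 values. The guanylate-binding protein gene Gbp2 was at 9.11 to 24.3 TPM and then at 67.1, 660 and 621 TPM. The class II chain H2-Aa was at 83.3 to 162 TPM and then at 228, 1000.0 and 744 TPM, and the class II invariant chain Cd74 rose by a log2 change of 2.42. For Cd74, the day 14 value of mouse 14 was 127 TPM and the highest uninjured value 107 TPM. H2-DMa was the member that was not called, at 4.48 to 6.33 TPM at day 0 and 5.38, 39.3 and 25.8 TPM at day 14. Without mouse 15 the count of called genes was 2, without mouse 16 it was 1 and without an uninjured mouse it was 1 to 3.

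Monocyte and macrophage genes were higher in 7 of 15 tested cases (16 listed). Of the 13 that passed the filter on uninjured mice alone, 5 were called, and their median log2 change was 1.24. Cd14, the co-receptor for bacterial lipopolysaccharide, was at 14.9 to 18.6 TPM at day 0 and at 33.2, 135 and 261 TPM at day 14. Ccr2, the chemokine receptor of blood monocytes, was at 1.45 to 1.94 TPM and then at 2.40, 13.1 and 10.0 TPM. The mannose receptor gene Mrc1, carried by resident macrophages, was not called and lay at 7.33 to 9.65 TPM at day 0 and 6.56, 7.08 and 6.81 TPM at day 14. Arg1 was at 0.895 to 6.07 TPM at day 0 and at 1.13, 142 and 239 TPM at day 14 and was not called, with mouse 14 inside the uninjured range. No gene of this list was called without mouse 15, without mouse 16 or when any 1 uninjured mouse was left out. Acod1, which makes the antimicrobial metabolite itaconate in activated macrophages, went from 0.126 TPM or less to 4.96, 73.9 and 238 TPM.

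Of 17 listed T and NK cell genes, 8 were tested, 6 of them only through their day 14 values, and 7 were called higher. The count is thus no measure of the list. The 2 that passed the filter on uninjured mice alone were both called. Trac, the constant region of the T cell receptor alpha chain, was at 0 to 0.599 TPM at day 0 and at 3.84, 10.5 and 9.76 TPM at day 14 (log2 change 2.64 ± 0.33 SE, limma adjusted p = 0.00591). Gzma, a granzyme of cytotoxic cells, was at 0.284 TPM or less and then at 1.02, 13.9 and 17.8 TPM. Without mouse 15 and without mouse 16, 3 and 1 of the 8 were called, and 1 to 3 without an uninjured mouse.

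None of the 9 tested B cell genes (12 listed) was called, and 8 of the 9 did not pass the filter on uninjured mice alone. The B cell receptor component Cd79a was at 3.97, 0.177, 0.239 and 9.96 TPM in uninjured mice 1 to 4 and at 1.75, 92.5 and 36.9 TPM in mice 14, 15 and 16. The groups overlapped, since mouse 14 lay below uninjured mice 1 and 4. Mouse 14 was also the lowest day 14 mouse for plasma cells, but mouse 16 was the highest. The summed plasma cell list was at 420.4 to 1402 TPM at day 0 and at 976, 3021 and 4326 TPM at day 14. Of its 9 tested genes, 1, Mzb1, was called higher (6.31% of all genes were), but not when any 1 uninjured mouse was left out. The mucosal mast cell proteases Mcpt1 and Mcpt2 were the 2 called genes of the mast cell and eosinophil list (4 tested of 12 listed), and both entered the test only through their day 14 values. Mcpt1 was at 0.282 to 0.867 TPM at day 0 and at 5.78, 8.53 and 7.29 TPM at day 14 (log2 change 2.41 ± 0.19 SE, limma adjusted p = 0.00169). The connective-tissue type protease Cma1 was at 4.48 to 5.88 TPM at day 0 and 4.96 to 5.54 TPM at day 14.

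Several secretory cell genes of the epithelium changed by similar amounts in all 3 day 14 mice. Of 12 tested goblet cell genes, 5 were called higher (6.31% of all genes were) and none lower. The median log2 change was 0.47 over the 11 that passed the filter on uninjured mice alone. Muc2, the gel-forming mucin of the mucus layer, was at 596, 510.4, 643 and 630.4 TPM at day 0 and at 1555, 1611 and 1702 TPM at day 14 (log2 change 1.45 ± 0.10 SE, limma adjusted p = 0.000979). Spink4, a trypsin inhibitor made by goblet cells, was at 745 to 1058 TPM and then at 2900.0, 2836 and 3887 TPM. Agr2, which folds mucin in the endoplasmic reticulum, and Spdef, a transcription factor of goblet cell maturation, rose by log2 changes of 0.64 and 0.84. Other goblet products went different ways among the mice. Clca1 was at 1962 to 2529 TPM at day 0 and at 4174, 1316 and 1341 TPM in mice 14, 15 and 16, and Zg16 reached 13928 TPM in mouse 14 against 6332 and 6694 TPM in the other two. Retnlb, resistin-like β, a goblet cell product, was the 1 called goblet gene with a wide spread, from 0.494 TPM or less at day 0 to 12.6, 92.3 and 248 TPM. The count of goblet genes called higher was 5, 5 and 4 without mouse 14, 15 and 16 and 3 to 5 without an uninjured mouse. Without mouse 14, 2 were called lower, among them Clca1 with a log2 change of -0.79 (limma adjusted p = 0.0017).

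Enteroendocrine genes were higher in 7 of 10 tested cases (12 listed). Of the 9 that passed the filter on uninjured mice alone, 6 were called, and their median log2 change was 1.44. Pyy, which encodes peptide YY of colonic L cells, was at 163, 161, 181 and 183 TPM at day 0 and at 581, 479 and 364 TPM at day 14 (log2 change 1.44 ± 0.16 SE, limma adjusted p = 0.00451). Insl5, a hormone of distal L cells, was at 34.3 to 63.6 TPM and then at 197, 135 and 111 TPM. Gcg, the glucagon precursor, was at 11.4 to 13.9 TPM and then at 30.4, 35.7 and 22.9 TPM. Mouse 14 held the highest level of Pyy, Insl5, Chgb and Sct, whereas Gcg was highest in mouse 15. The mean log2 difference from day 0 over the 10 tested genes was 1.29, 1.47 and 1.06 in mice 14, 15 and 16. Somatostatin (Sst), from D cells, was not called, at 2.11 to 4.57 TPM at day 0 and 2.71 to 4.71 TPM at day 14. The enteroendocrine count was 7 without each day 14 mouse, or 6 to 7 with the filter applied anew, and 6 to 7 without an uninjured mouse.

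Across all called genes, 212 of the 804 higher and 653 of the 1213 lower had day 14 values within 0.5 on the log2 scale of each other. The share of all tested genes within that range was not counted, so these counts show no trait of the called genes. Muc2, Spink4, Sct, Chgb and Nr4a1 were among the former. For S100a8 the corresponding values spanned 72.9 to 2032 TPM.

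Genes known to mark injured and regenerating epithelium were higher in 7 of 14 tested cases (15 listed). Of the 11 that passed the filter on uninjured mice alone, 5 were called, and their median log2 change was 0.90. Ly6a, which encodes Sca-1 of fetal-like regenerating epithelium, was at 550 to 738 TPM at day 0 and at 1923, 4663 and 4987 TPM at day 14 (log2 change 2.51 ± 0.32 SE, limma adjusted p = 0.00634). The close copies of the Ly6 family apply to this level too. Plaur, the urokinase receptor, was at 2.98 to 4.55 TPM and then at 8.96, 46.3 and 97.8 TPM. The epidermal growth factor receptor ligand Areg was at 11.5 to 18.5 TPM and then at 50.2, 42.2 and 33.4 TPM, with mouse 14 the highest, and the related ligand Ereg rose by a log2 change of 1.87. Clu and Anxa1 were not called, and mouse 14 was inside the uninjured range for both, with 26.2 TPM for Clu and 511 TPM for Anxa1. Of the 14 genes, 11, 5 and 3 were called without mouse 14, 15 and 16, and 3 to 4 without an uninjured mouse.

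Crypt genes were not called. None of the 8 tested stem cell and Wnt target genes (12 listed) passed, with a median log2 change of -0.16, and Lgr5 and Ascl2 were below the filter. None of the 12 proliferation genes passed with all mice. Top2a, a topoisomerase of dividing cells, was at 25.8 to 33.1 TPM at day 0 and at 26.8, 81.6 and 68.4 TPM at day 14, and Mki67 was at 14.1 to 16.3 TPM and then at 12.1, 19.6 and 19.6 TPM. Mouse 14 lay inside the uninjured range for Top2a and below it for Mki67. Without mouse 14, 11 of the 12 proliferation genes were called higher. The 6 tested tuft cell genes were not called.

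Many genes of the absorptive surface were lower. Of 12 absorptive colonocyte genes, 6 were called lower and 1 higher (9.51% of all genes were lower), with a median log2 change of -0.41. Car1, a carbonic anhydrase, was at 3352 to 4883 TPM at day 0 and at 2452, 839 and 733 TPM at day 14. Slc26a3, the chloride-bicarbonate exchanger, was at 1011 to 1291 TPM and then at 777, 349 and 284 TPM. The water channel Aqp8 was at 828 to 1186 TPM and then at 693, 179 and 185 TPM. In each, mouse 14 was the nearest to uninjured. Guca2b, which encodes uroguanylin, was the 1 member called higher, at 11.5 to 15.5 TPM and then at 24.9, 27.6 and 46.5 TPM. Krt20 and Lypd8, both of the differentiated surface, were not called and were above the uninjured range in every day 14 mouse. The count of lower genes was 6, 2 and 1 without mouse 14, 15 and 16 and 1 to 2 without an uninjured mouse.

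Of 14 salt and water transport genes, 8 were called lower and 2 higher (9.51% and 6.31% of all genes were), with a median log2 change of -0.79. All 3 subunits of the epithelial sodium channel fell. Scnn1g, the gamma subunit, was at 39.8, 61.7, 41.9 and 45.3 TPM at day 0 and at 17.6, 6.09 and 7.57 TPM at day 14 (log2 change -2.19 ± 0.32 SE, limma adjusted p = 0.0105). Scnn1a, the alpha subunit, was at 109 to 141 TPM and then at 63.2, 49.7 and 28.9 TPM, and Scnn1b fell by 1.07 on the log2 scale. The mineralocorticoid receptor Nr3c2, through which aldosterone raises this channel, was at 58.4 to 70.1 TPM and then at 39.7, 30.3 and 21.4 TPM.

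Atp1b1, the beta subunit of the basolateral sodium pump, fell by 0.82 on the log2 scale. The pump modulator Fxyd4 was at 126 to 162 TPM at day 0 and at 46.3, 11.0 and 18.3 TPM, and the sodium-bicarbonate cotransporter Slc4a4 at 45.4 to 58.7 TPM and then at 20.2, 6.86 and 8.17 TPM. The 2 genes called higher were the water channel Aqp4, at 6.53 to 13.0 TPM and then at 26.4, 70.0 and 74.1 TPM, and the chloride-loading cotransporter Slc12a2, with a log2 change of 0.51. Of the 14 genes, 11, 5 and 5 were called lower without mouse 14, 15 and 16, and 4 to 5 without an uninjured mouse.

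The other large falls were Retnla, Krtdap, Klk15, Mfap3l, Mptx1, Ahnak2, Inmt, Itih2, Naaladl1 and Bmp3. Retnla, resistin-like α, was at 34.1, 28.8, 28.9 and 19.9 TPM at day 0 and at 2.10, 0 and 0.243 TPM at day 14 (log2 change -4.18 ± 0.38 SE, limma adjusted p = 0.0029). Its relative Retnlb moved the other way, as given above. Mptx1, a mucosal pentraxin, was at 829 to 1388 TPM and then at 380, 221 and 42.5 TPM. Bmp3, a secreted ligand of the BMP family, was at 17.5 to 23.4 TPM and then at 8.97, 2.29 and 1.53 TPM. Krtdap, a product of differentiating squamous cells, was at 82.7 TPM in uninjured mouse 1 and 6.29 to 16.8 TPM in the other uninjured mice, and squamous transcripts differed between the samples, as given below.

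Detoxification genes were lower in 6 of 13 tested cases (14 listed, 9.51% of all genes were lower) and higher in none. Their median log2 change was -0.58. Abcb1a, the drug efflux pump P-glycoprotein, was at 344 to 491 TPM at day 0 and at 309, 74.5 and 63.4 TPM at day 14. The cytochrome P450 gene Cyp2s1 was at 79.3 to 114 TPM and then at 50.6, 28.4 and 19.6 TPM, and the glutathione transferase Gstm1 was at 173 to 220.1 TPM and then at 105, 107 and 90.7 TPM. Cyp2c55 differed widely between the mice: it was at 649 to 1186 TPM at day 0 and at 809.5, 53.7 and 57.6 TPM in mice 14, 15 and 16, and was not called (limma adjusted p = 0.0849). Mouse 14 was inside the uninjured range for this gene. The count of lower detoxification genes was 9, 4 and 2 without mouse 14, 15 and 16 and 1 to 3 without an uninjured mouse.

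Of the 6 tested genes of calcium uptake and the vitamin D response, 3 were called lower (9.51% of all genes were). Their median log2 change was -1.10, and 2 were called without an uninjured mouse. Vdr, the vitamin D receptor, was at 287 to 379 TPM at day 0 and at 147, 80.7 and 65.1 TPM at day 14 (log2 change -1.81 ± 0.26 SE, limma adjusted p = 0.00912). Its partner Rxra was at 21.3 to 28.0 TPM and then at 13.1, 12.5 and 7.94 TPM. S100g, the calcium carrier calbindin-D9k, and the calcium channel Trpv6 were not called. S100g was at 170.2 to 599 TPM at day 0, with uninjured mouse 3 far above the others, and at 167, 40.8 and 66.9 TPM at day 14.

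Genes of the molecular clock were lower in 8 of 12 tested cases (13 listed, 9.51% of all genes were lower), with a median log2 change of -0.69. Tef, a clock-driven transcription factor, was at 52.8 to 54.9 TPM at day 0 and at 32.8, 28.8 and 20.0 TPM at day 14 (log2 change -0.98 ± 0.16 SE, limma adjusted p = 0.0127). Dbp was at 82.6 to 101 TPM and then at 63.2, 33.3 and 15.8 TPM. The positive limb gene Arntl and its repressor Nr1d1 fell together, by 0.67 and 1.35 on the log2 scale. The count was 9, 3 and 1 without mouse 14, 15 and 16 and 1 to 2 without an uninjured mouse. Clock gene levels follow the time of day, and the labels used here do not give the time of dissection, so its part was not tested.

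Smaller groups moved by less or in part. In the matrix protease list, 5 of 12 tested genes were called higher and 1 lower, and 5 of the 12 entered the test only through their day 14 values. Of the 7 that passed the filter on uninjured mice alone, 2 were called higher and 1 lower. Over all 12, the count of higher genes was 11, 2 and 2 without mouse 14, 15 and 16 and 1 to 2 without an uninjured mouse. The stromelysins Mmp3 and Mmp10 rose by log2 changes of 3.49 and 3.52, and the plasminogen activator Plat was at 1.69 to 3.44 TPM at day 0 and at 10.6, 16.7 and 13.0 TPM at day 14. Collagen genes were not called, and Col1a1 was at 19.0 to 25.9 TPM at day 0 and at 9.86, 27.6 and 17.0 TPM at day 14. Among stromal signals, the BMP antagonist Grem1 was at 4.80 to 7.00 TPM and then at 13.5, 22.0 and 21.0 TPM, the prostaglandin synthase Ptgs2 rose by a log2 change of 3.32, and Bmp2 fell by 0.91. Of 13 tight junction and adhesion genes, 1 was called higher (Cldn15, log2 change 0.89) and 2 lower (6.31% and 9.51% of all genes were). Ocln, 1 of those lower, was at 130.1 to 160.2 TPM and then at 108, 55.7 and 54.8 TPM. The count of lower genes in this list was 5, 2 and 0 without mouse 14, 15 and 16 and 0 to 1 without an uninjured mouse.

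Of 13 nuclear genes of the respiratory chain, 4 were called lower (9.51% of all genes were) and 1 higher, with a median log2 change of -0.26, and none was called lower when any 1 uninjured mouse was left out. Cox4i1, a subunit of cytochrome oxidase, was at 1376 to 1551 TPM at day 0 and at 1153, 1149 and 1169 TPM at day 14. The butyrate and lactate carrier Slc16a1 was the 1 called gene of 13 in the fatty acid list, lower (9.51% of all genes were). It was at 149.97 to 171 TPM and then at 118, 60.2 and 68.4 TPM. Cholesterol synthesis held calls in both directions, 4 higher (6.31% of all genes were) and 2 lower of 15, where Dhcr7 fell by 1.22 on the log2 scale and Fdps and Msmo1 rose by 0.85 and 0.65. Of 13 genes of the unfolded protein response, 2 were called, both higher (6.31% of all genes were). The count of higher genes was 9, 1 and 0 without mouse 14, 15 and 16 and 0 to 1 without an uninjured mouse. The glycolytic regulators Hk2 and Pfkfb3 rose by log2 changes of 1.41 and 2.10, whereas Ldha was not called.

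Markers of tissue next to the mucosa differed between samples. The summed level of 15 squamous epithelium genes was 27.5 to 230.3 TPM at day 0 and 44.2, 1109 and 774 TPM in mice 14, 15 and 16, and none of its 12 tested genes was called. The basal keratin Krt14 was at 7.16 to 25.3 TPM at day 0 and at 16.5, 380.4 and 274 TPM at day 14. Mice 15 and 16, which held the highest inflammatory levels, thus also held the highest squamous levels, and the part of squamous tissue in the results above was not tested. Summed smooth muscle transcripts were lowest in the same mice: 1075 to 1288 TPM at day 0 and 1030.0, 543.5 and 699 TPM at day 14. Of the 10 smooth muscle genes, 2 were called lower (9.51% of all genes were). That count was 9, 1 and 0 without mouse 14, 15 and 16 and 0 to 1 without an uninjured mouse. Skeletal muscle genes summed to 12.7 to 45.3 TPM at day 0 and 12.0 to 24.6 TPM at day 14. The fat cell markers Adipoq and Plin1 were listed at 0 in all 7 samples. Fabp4, a fatty acid binding protein also made by endothelium and macrophages, was called higher, at 4.03 to 5.22 TPM and then at 10.5, 20.1 and 15.0 TPM. Endothelial genes summed to 43.0 to 65.1 TPM at day 0 and to 45.9, 147 and 95.7 TPM at day 14. The lymphatic marker Lyve1 was the 1 called gene of 10 tested, lower (9.51% of all genes were).

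Day 14 was also compared with days 9 and 20 of the rectal time course; all comparisons share the day 14 samples. Against the 3 mice of day 9, 1054 of 13115 genes were called (8.04%), 435 higher (3.32%) and 619 lower (4.72%), and the median log2 change of all genes was -0.16, a shift that TMM factors took to 0.0025, with 866 genes higher and 819 lower. The calls rested on day 9 mouse 13, without which limma called 0 genes at an adjusted p under 0.05 and 2702 at an unadjusted p under 0.05. Without the other mice the count was 67 to 653. The 4 largest rises after day 9 were S100g, Dio1, Cyp2c68 and Trpv6, of which 2 carry calcium. S100g was at 0.962 to 1.85 TPM at day 9 and at 167, 40.8 and 66.9 TPM at day 14 (log2 change 5.05 ± 0.48 SE, limma adjusted p = 0.0125). Trpv6 was at 0.867 to 1.79 TPM and then at 28.0, 19.3 and 20.1 TPM, which is inside the uninjured range of 19.0 to 31.3 TPM.

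The 4 largest falls after day 9 were neutrophil products, Retnlg, Ngp, Stfa2 and Stfa3. Retnlg was at 645 to 820.3 TPM at day 9 and at 3.35, 30.7 and 101 TPM at day 14 (log2 change -4.89 ± 1.00 SE, limma adjusted p = 0.0358). Of 12 proliferation genes, 8 were called lower than at day 9, such as Mki67, which was at 45.2 to 51.3 TPM at day 9. Muc2 was at 523 to 1052 TPM at day 9 and 717 to 1312 TPM at day 20, below each of the day 14 values. Scnn1g was at 5.05 to 42.3 TPM at day 9 and 2.15 to 8.68 TPM at day 20, and was not called against day 14 on either day.

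**Figure D3:**
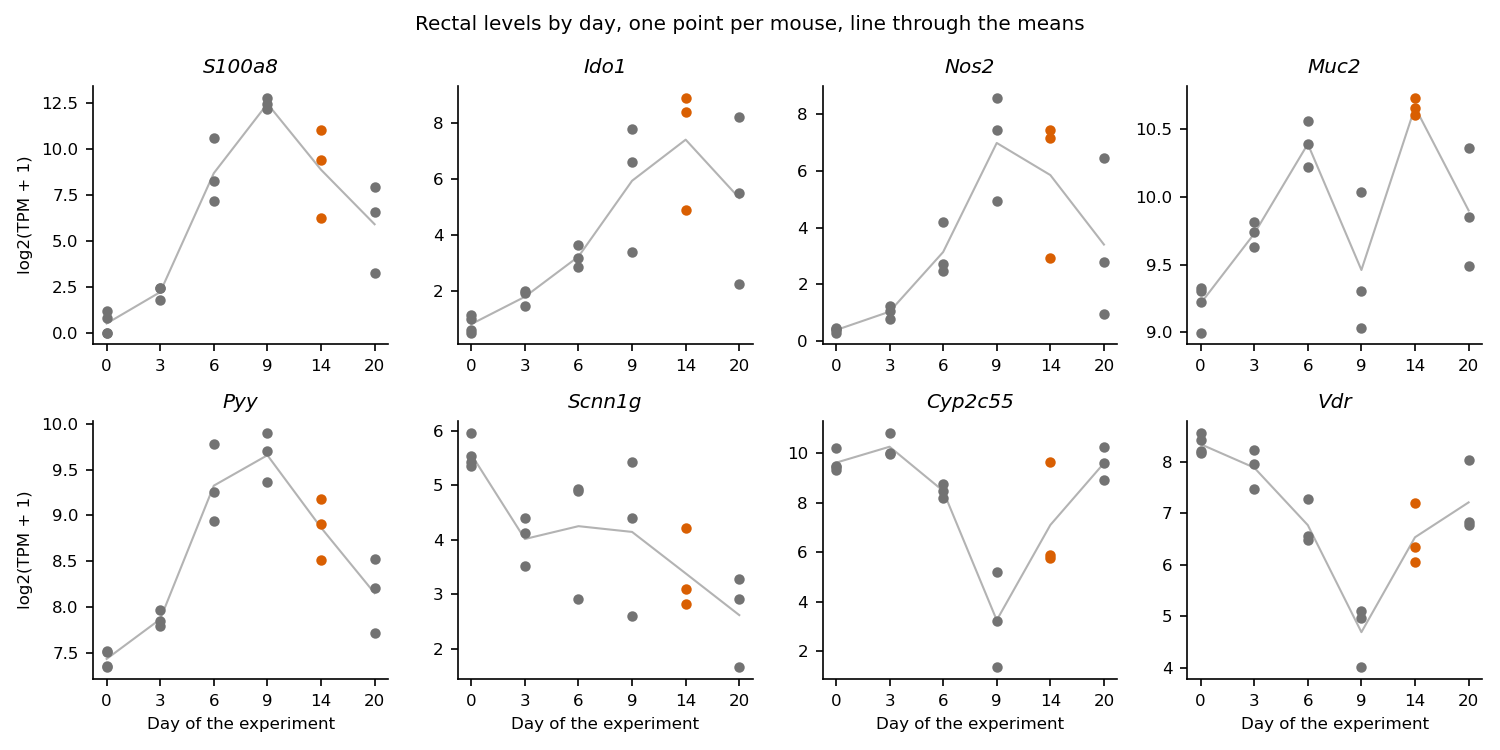
Level of 8 genes on the log2(TPM + 1) scale (y axes, each with its own range) in every rectal sample by day (x axis, unevenly spaced days), with day 14 in orange and a line through the means. Muc2 is highest at day 14 (1555 to 1702 TPM), S100a8 at day 9 (4504 to 6975 TPM), and the mean of Scnn1g is lowest at day 20 (2.15 to 8.68 TPM).

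Between day 14 and day 20, limma called 2 of 12890 genes at an adjusted p under 0.05 (0.0155%), and 368 (2.85%) had an unadjusted p under 0.05. Both are named here after their values were seen. Gm7367, a predicted gene, was at 11.0 to 15.7 TPM at day 14 and at 0.047 TPM or less at day 20, but also listed at 0 in uninjured mouse 3. Rps16-ps2, a ribosomal protein pseudogene, was listed at 0 in all 3 day 14 mice and at 67.5 to 225 TPM at day 20. Both are close copies of other sequences, and how the quantifier split their reads is uncertain. The count was 0 without mouse 15, mouse 16 or day 20 mice 18 or 19. The groups were wide: S100a8 was at 92.8, 238 and 8.26 TPM in day 20 mice 17, 18 and 19, with a log2 difference of day 14 from day 20 of 2.97.

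The mid-colon of the same day 14 mice had calls in 529 of 12135 genes (4.36%), 309 higher (2.55%) and 220 lower (1.81%) than in uninjured mid-colon. Levels ran in the same order of mice in several genes. S100a8 was at 26.7, 132 and 176 TPM in the mid-colon of mice 14, 15 and 16, and Ido1 at 11.8, 198 and 202 TPM, against no more than 0.780 and 2.39 TPM in uninjured mid-colon. Pyy was at 187 to 281 TPM and then at 601, 926 and 665 TPM. Cd79a was at 0.847 TPM or less and then at 9.57, 8.10 and 9.45 TPM, a log2 change of 2.58, and was not called as differing between the sections in the test below.

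Whether the response differed between rectum and mid-colon was tested as an interaction over 14 samples. Limma called 1 of 13247 genes at an adjusted p under 0.05 (0.00755%), and 563 (4.25%) had an unadjusted p under 0.05. That gene was Cps1, which encodes the first enzyme of the urea cycle. It was at 5.16, 6.77, 5.91 and 5.19 TPM in uninjured rectum and at 1.62, 1.58 and 1.59 TPM at day 14, whereas mid-colon was at 1.59 to 2.43 TPM and then at 2.14 to 2.76 TPM. The difference between the sections' log2 changes was -1.55 ± 0.20 SE (limma adjusted p = 0.0363). With the mouse as a replicate block it was not called (adjusted p = 0.0692). Without mouse 14, 308 genes were called. Areg, with mid-colonic means of 15.8 TPM at day 14 and 15.6 TPM at day 0, and Scnn1g, with a mid-colonic log2 change of -0.47, were not called as differing between the sections (limma adjusted p = 0.977 and 0.883).

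**Figure D4:**
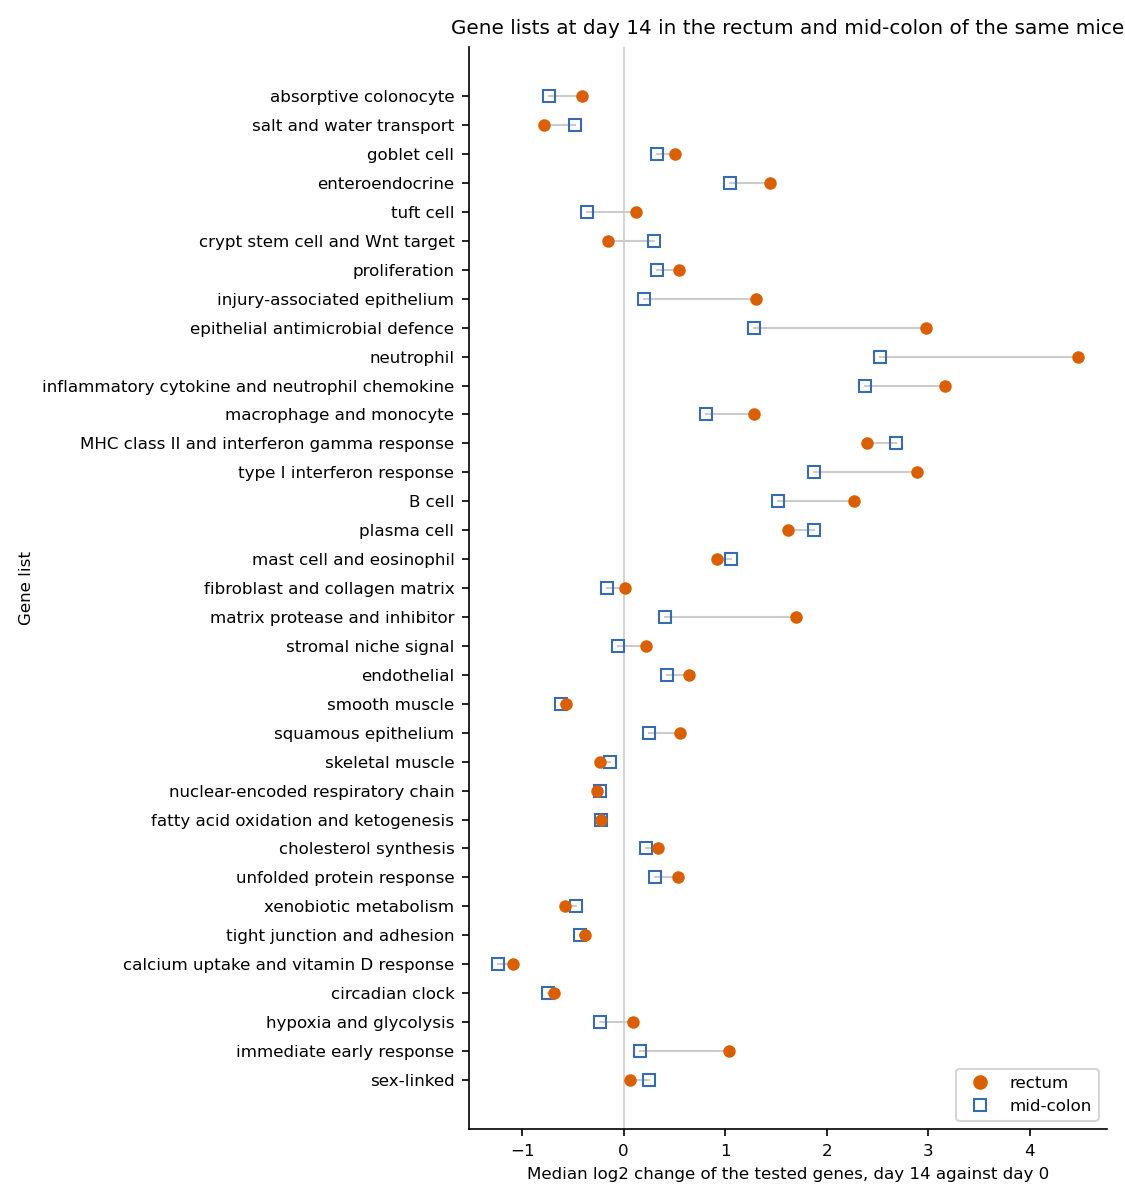
Median log2 change at day 14 of the tested genes of each list (x axis) in rectum (filled circles) and in mid-colon (open squares) of the same 3 mice, each against its own uninjured section. The list of antigen presentation and interferon gamma response lies at 2.40 in rectum and 2.68 in mid-colon, and the goblet cell list at 0.51 and 0.33. Genes were filtered in each section separately, so the members of a list can differ. Genes that entered a test only through their day 14 values are included, which can raise the median of a list. The squamous list, for example, had 12 tested genes in rectum and 5 in mid-colon.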

How the data were processed

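Bulk RNA sequencing was done on 66 sections from the mid-colon, rectum, anus and squamous neo-epithelium. Per the labels' protocols, stranded mRNA libraries gave single-end reads of 75 bp. The submitters' processing notes name CASAVA, kallisto and mm10, with no role or order. The authors deposited other values than counts: a TPM table of 126860 rows, of which 89516 held values. Its columns summed to 1032331 to 1040823 TPM in the 7 samples, because 1318 rows repeated a transcript; these were dropped, after which TPM was summed per Ensembl gene (30452 genes). Transcripts without a gene identifier held 0.627% to 0.813% of TPM and were left out.

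Genes with at least 1 TPM in 3 or more samples of a comparison were tested with limma 3.58.1 (R version 4.3.3) on the log2(TPM + 1) scale (trend prior, Benjamini-Hochberg adjustment, call at an adjusted p under 0.05). Only the 2 groups compared entered each fit. The code was tested on simulated data first. Depth is unknown. The labels give 1 mouse per sample and no batch or date. Named genes are list members, or the 12 largest called rises and falls (4 for day 9) with a mean of at least 8 TPM in the higher group, no overlap between the groups and a proper symbol. The samples, members and gene lists were chosen with earlier results of these data known. Rectum and mid-colon share mouse identifiers in the labels, and their deviations from the group means had a mean Pearson r of 0.293 across genes over the 7 mice. Alternatives tried were TMM factors, a pseudocount of 0.1, no filter, a filter of 5 TPM, a minimum log2 change of 1, array weights, all 19 rectal samples, TPM without mitochondrial genes, the mouse block, and each mouse left out.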

Additional observations from a re-analysis of the deposited data

Results flagged for a closer look

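In 15 of 202 genes checked, 1 uninjured rectum stood far from the other 3, where chance gives about 1 in 20. Mouse 1 was low for Duoxa2 (6.13 TPM, others 10.6 to 11.6) and Pigr (764 TPM, others 912 to 935). It was high for Oasl2 (19.2 TPM, others 6.27 to 7.41), Atp1b1 (1114 TPM, others 995 to 999) and Cldn8 (72.0 TPM, others 57.4 to 58.9). Mouse 2 was high for Chil3 (0.566 TPM, others 0.079 to 0.127).

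Mouse 3 was high for S100g (598.5 TPM, others 170.2 to 197), Cyp2c55 (1186 TPM, others 649 to 709) and Arntl (13.6 TPM, others 8.97 to 9.13). It was also high for Timp1 (3.44 TPM, others 2.16 to 2.35), Clec4e (0.161 TPM, others 0.021 or less) and Retnlg (0.672 TPM, others listed at 0). Mouse 4 was high for Ly6g (736 TPM, others 602 to 615) and Cxcl2 (0.070 TPM, others listed at 0), and low for Bmp2 (32.0 TPM, others 41.0 to 42.8).

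The change of Cps1 at day 14 differed between rectum and mid-colon by -1.55 on the log2 scale in the interaction test. That test did not account for sections sharing a mouse. With the mouse as a replicate block, Cps1 was not called (limma adjusted p = 0.069).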

How the results depend on the processing

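The calls at day 14 against day 0 numbered 2017, and 1192 with no filter, 7237 with array weights (which put 4.45 on mouse 16 and 0.186 on mouse 14) and 769 with a log2 change of at least 1. Leaving out 1 mouse gave 326 to 4520. With the same genes tested, an alternative added after seeing the data, it gave 4666, 1256 and 396 without mouse 14, 15 and 16. Against day 9 the count of 1054 became 1685 with TMM factors, 120 with no filter and 5088 with array weights, and 0 to 653 with 1 mouse left out. Against day 20 the count of 2 became 0 to 2 with 1 mouse left out. The interaction count of 1 became 2 with TMM factors, 5 with no filter, 0 with the filter of 5 TPM, 480 with array weights and 0 to 308 with 1 mouse left out. With the mouse as a replicate block the interaction count was 0, and 1447 genes had an unadjusted p under 0.05. The cause of these shifts was not tested. The adjusted p of Cps1 from limma ranged from 0.00289 to 0.428 over its alternatives.

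Among the genes named, 8 that were not called turned direction in some alternative. With array weights the log2 change was -0.0527 for Ly6g, -0.0693 for Saa2 and 0.0296 for Cma1, and without mitochondrial genes it was -0.0586 for Guca2a. With 1 mouse left out it ranged from -0.0933 to 0.0154 for Cma1, from -0.79 to 0.0456 for Clca1, from -0.061 to 0.28 for Sst and from -0.31 to 0.10 for Axin2. It ranged from -0.37 to 0.52 for Guca2a and from -0.41 to 0.0594 for Col3a1. With the same genes tested it was 0.10 for Axin2, -0.37 for Guca2a and 0.0594 for Col3a1 without mouse 14. It was 0.0456 for Clca1 and -0.0296 for Sst without mouse 15, and 0.0322 for Clca1, 0.0169 for Axin2 and -0.13 for Guca2a without mouse 16. With 3 day 14 mice and unknown depth, differences between values near 0 TPM were not resolved.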

Other observations

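Among called genes with day 14 values within 0.5 on the log2 scale of each other, several belong to no list; they are named after their values were seen. Khdc1a was at 0.170 to 0.574 TPM at day 0 and at 24.4, 30.3 and 33.9 TPM in mice 14, 15 and 16 (log2 change 4.41 ± 0.17 SE, limma adjusted p = 8.38e-05). It was under 1 TPM in every uninjured mouse, so it entered the test only through its day 14 values. The membrane mucin Muc4 was at 8.29 to 12.0 TPM and then at 27.4, 38.9 and 36.3 TPM. The alpha globin gene Hba-a1 was at 29.0 to 45.9 TPM and then at 97.1, 105 and 128 TPM, and reads of its near-identical copy Hba-a2 may be shared with it.

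Serpinf1, which encodes pigment epithelium-derived factor, was at 18.5 to 27.5 TPM at day 0 and at 6.32, 6.64 and 6.08 TPM at day 14 (log2 change -1.63 ± 0.15 SE, limma adjusted p = 0.0029). The gasdermin gene Gsdmc3 was at 117 to 156 TPM and then at 52.9, 38.3 and 43.9 TPM. In all of these, the 3 day 14 mice lay on the same side of every uninjured mouse.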
